A study of Mus musculus with 4 samples.

Results

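The genes described here were 42 lysosomal genes other than cathepsins, chosen by symbol as hydrolases and their cofactors, lysosomal membrane proteins, transporters and channels, subunits of the proton pump, and the transcription factors of lysosome formation. All 42 symbols were found once each among the 55403 genes of the count tables. RNA molecules were counted by unique molecular identifiers (UMIs) in single nuclei of frozen mouse hippocampus, in 4 libraries: 1 of wild-type (WT) mice, 2 of PS19 mice (replicates 1 and 2) and 1 of PS19 mice with an added SORLA transgene (TG_PS19). PS19 mice carry a human 1N4R MAPT (tau) transgene with the P301S mutation, driven by the Prnp promoter, on a B6;C3 background, so that both the PS19 and the TG_PS19 libraries hold this transgene and WT does not. The SORLA line carries its transgene at the Rosa26 locus and overexpresses SORLA, a sorting receptor of the endosomal system, from a CMV/β-actin promoter element, which is not restricted to one cell type. Littermates were used and hippocampi were pooled by group, according to the labels' protocols. The study title calls the brains aged, while the exact age, the sex and the number of animals per pool are not given in the sources used here. It is also not stated whether the 2 PS19 libraries came from separate animals, so p-values measure only the spread between these samples, which may be technical. That spread was pooled over the genes of a class and was not that of each gene alone. WT and TG_PS19 had 1 library each and were assumed to vary like the PS19 pair.

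Lysosomes are acidic organelles that break down material delivered by endocytosis, phagocytosis and autophagy. A proton pump, the V-ATPase, acidifies them, hydrolases carrying a mannose 6-phosphate tag are sorted into them, and membrane proteins seal them and export the products. In brain, microglia and other phagocytes are rich in lysosomes, and loss of many of these genes causes lysosomal storage disease with neurodegeneration. Transcription factors of the MiT/TFE family (TFEB, TFE3 and MITF) bind an E-box type motif in the promoters of many lysosomal genes.

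The promoters of the members were searched for that motif in 3 nested forms: CACGTG, the longer TCACGTGA, and TCACGTGA with a G before it and a C after it. Each reads the same on both strands and contains the shorter ones. Promoter windows of 300 bases (250 before to 50 after an annotated start, RefSeq, GRCm38.p6) were found for 38 of the 42 members. CACGTG occurred in 10 of the 38 (26.3%) and in 8.09% of all 27025 genes with a window. TCACGTGA occurred in 5 members (13.2%) and in 1.12% of all genes, and the longest form in 1 member, Cln3 (2.63%), and in 0.37% of all genes. Stretches of 30 bases are shown for the 7 members that hold a match and that passed the expression test in at least 1 cell class, so that the matches can be read beside the expression values. Capitals mark TCACGTGA where it is present and CACGTG otherwise, and all stretches are written 5′ to 3′ on the strand of the gene.
Atp6v0d1, chr8:105566050-105566079, minus strand: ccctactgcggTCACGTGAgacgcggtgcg
Atp6v1a, chr16:44139373-44139402, minus strand: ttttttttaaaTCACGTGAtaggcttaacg
Cln3, chr7:126583340-126583369, minus strand: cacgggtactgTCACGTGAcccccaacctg
Lamp1, chr8:13159088-13159117, plus strand: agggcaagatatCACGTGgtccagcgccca
Glb1, chr9:114401018-114401047, plus strand: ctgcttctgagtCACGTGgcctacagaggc
Naglu, chr11:101070009-101070038, plus strand: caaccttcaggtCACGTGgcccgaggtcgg
Sgsh, chr11:119355522-119355551, minus strand: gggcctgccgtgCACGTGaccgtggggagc
The match began at position -4 from the annotated start in Atp6v0d1, at -29 in Sgsh, at -48 in Glb1, at -61 in Lamp1, at -73 in Naglu, at -122 in Cln3 and at -132 in Atp6v1a. The Cln3 match lay at a downstream annotated start, and the Cln3 window at the 5′ end of the gene held none of the 3 forms. Mcoln1, Gla and Arsa also held CACGTG and passed the test in no class. Psap, Grn, Mitf and Gnptab, described next, held none of the 3 forms in the window searched. A match is a run of letters and no evidence of binding, and binding was not measured in these libraries.

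The libraries held between 4643 and 12762 barcodes and between 20064025 and 48670533 UMIs, and 4467 to 11458 nuclei per library remained after filters and removal of likely doublets. Levels are given as UMIs of a gene per 1000000 UMIs (CPM), of a whole library or of a cell class within it, and are compared between libraries but not between genes. Human MAPT had 0 UMIs in WT, was at 17.9 and 18.8 CPM in PS19 and was lower, at 13 CPM (exact Poisson interval 11.8 to 14.3), in TG_PS19. Human SORL1 reached 66.1 CPM in TG_PS19 and at most 0.373 CPM elsewhere, so both transgenes were detected in the groups that the labels give them. These transgene levels are those of whole libraries, which also depend on the mix of cell classes, and levels per class are not given. The part of the lower MAPT level in the comparisons of TG_PS19 with PS19 was not tested. Xist UMIs were found in 55.1% of the TG_PS19 nuclei and in 0.829% to 1.46% of the nuclei of the other libraries, so the TG_PS19 pool mixed sexes and the others were almost wholly male. Nuclei were clustered without the members, and 13 classes or clusters had enough nuclei in every library: microglia, astrocytes, oligodendrocytes, oligodendrocyte precursors, CA1 pyramidal, inhibitory and Cajal-Retzius neurons, endothelial cells, mural cells, fibroblasts, and 3 clusters known by number. Cluster 2 raised 6 of 8 markers of dentate granule neurons and was led by Cdh9 and Trpc6, cluster 4 raised 8 of 8 oligodendrocyte markers and was led by Enpp6 and Anln, and cluster 13 raised 4 of 7 CA1 markers and was led by Vwc2l and Tshz2. Counts summed per class and library were tested with edgeR's quasi-likelihood test, and a gene was called at an adjusted p below 0.05 over all genes of the class.

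Most calls of lysosomal genes were in microglia, 8 of 9 in PS19 against WT and 16 of 25 in TG_PS19 against PS19. Over all genes, 1036 of 4304 calls and 1043 of 7109 calls in the same comparisons were in microglia. PS19 microglia had higher levels of Mitf, of the V-ATPase subunits Atp6v1a and Atp6v0d1 and of Gnptab than WT microglia. TG_PS19 microglia had lower Mitf, Gnptab, Psap and Grn and lower levels of several hydrolases than PS19 microglia. The counts of calls include Atp6v0d2, which passed the filter on low counts through the PS19 libraries alone. Without it, microglia had 7 calls in PS19 against WT and 15 in TG_PS19 against PS19. Over the 13 classes, 453 tests of a member were made in each comparison. PS19 against WT gave 9 calls, 8 higher and 1 lower, which is 1.99% of the tests, beside 2.83% of all genes tested in the same classes. TG_PS19 against PS19 gave 25 calls, 2 higher and 23 lower, which is 5.52% beside 4.67% of all genes (1.64% lower). TG_PS19 against WT gave 7 calls, 1 higher and 6 lower, which is 1.55% beside 1.83% of all genes. Of the 42 members, 21 were called in at least 1 class and comparison, and 18 of these in microglia. The share of all genes called at least once is not given here, so these 2 counts have no background to be read against. Both main comparisons use the same PS19 libraries, so their opposite directions are not independent of each other.

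Microglia numbered 589 nuclei in WT, 255 and 282 in PS19 and 410 in the TG_PS19 library, with 999742, 615543, 782277 and 723171 UMIs. All 11 microglia markers were raised in both clusters of this class, and their sum was 16909 CPM in WT, 14834 and 13472 in PS19 and 15471 in TG_PS19, with no marker at 0. The smaller of these clusters, numbered 21 and led by Apobec1, Cd84 and Ly86, held 5 nuclei of WT, 105 and 106 of PS19 and 1 of TG_PS19, so microglia of PS19 were a different mixture from those of the other libraries. The PS19 microglia also had more UMIs per nucleus, with means of 2414 and 2774 against 1697 in WT and 1764 in TG_PS19. Marker RNA of other classes was lower in them: the summed oligodendrocyte markers stood at 950 CPM in WT, 539 and 525 in PS19 and 911 in TG_PS19, and the summed astrocyte markers at 926, 593, 546 and 882 CPM. The 6 markers of border-associated macrophages summed to 14.0 CPM in WT, 1.62 and 3.83 in PS19 and 1.38 in TG_PS19, and 2, 5, 4 and 5 of them were at 0. The part of these differences in the microglial results was not tested.

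In microglia, 41 of the 42 members passed the filter on low counts; Gla, coding alpha-galactosidase A, had 10, 3, 4 and 2 UMIs in WT, PS19 replicates 1 and 2, and TG_PS19 and was not tested. PS19 against WT called 8 of the 41 (19.5%), 7 higher and 1 lower, where 9.85% of all 10519 genes were called (4.96% higher and 4.89% lower). TG_PS19 against PS19 called 16 of the 41 (39.0%), 2 higher and 14 lower, where 9.92% of all genes were called (5.09% higher and 4.83% lower). With only the TG_PS19 nuclei holding Y-linked UMIs, which match the almost wholly male PS19 libraries in sex but are fewer, 5 of these 16 calls remained and the other 11 kept their direction. With only the nuclei holding Xist UMIs, 12 remained. The median log2 fold change over the 41 was 0.36 in PS19 against WT and -0.51 in TG_PS19 against PS19, beside 0.01 and -0.01 over all genes. TG_PS19 against WT called 0 of the 41 members with edgeR and 0 with DESeq2, while 3 members (Psap, Grn and Arsb) had an unadjusted p below 0.05 in edgeR. Of all genes, edgeR called 1.11% and DESeq2 0.019% in that comparison. The summed level of the 42 members was 6851 CPM in WT, 8329 and 7683 in PS19 and 6528 in TG_PS19. Both PS19 libraries lay above WT, and TG_PS19 lay below all of them.

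**Figure D1:**
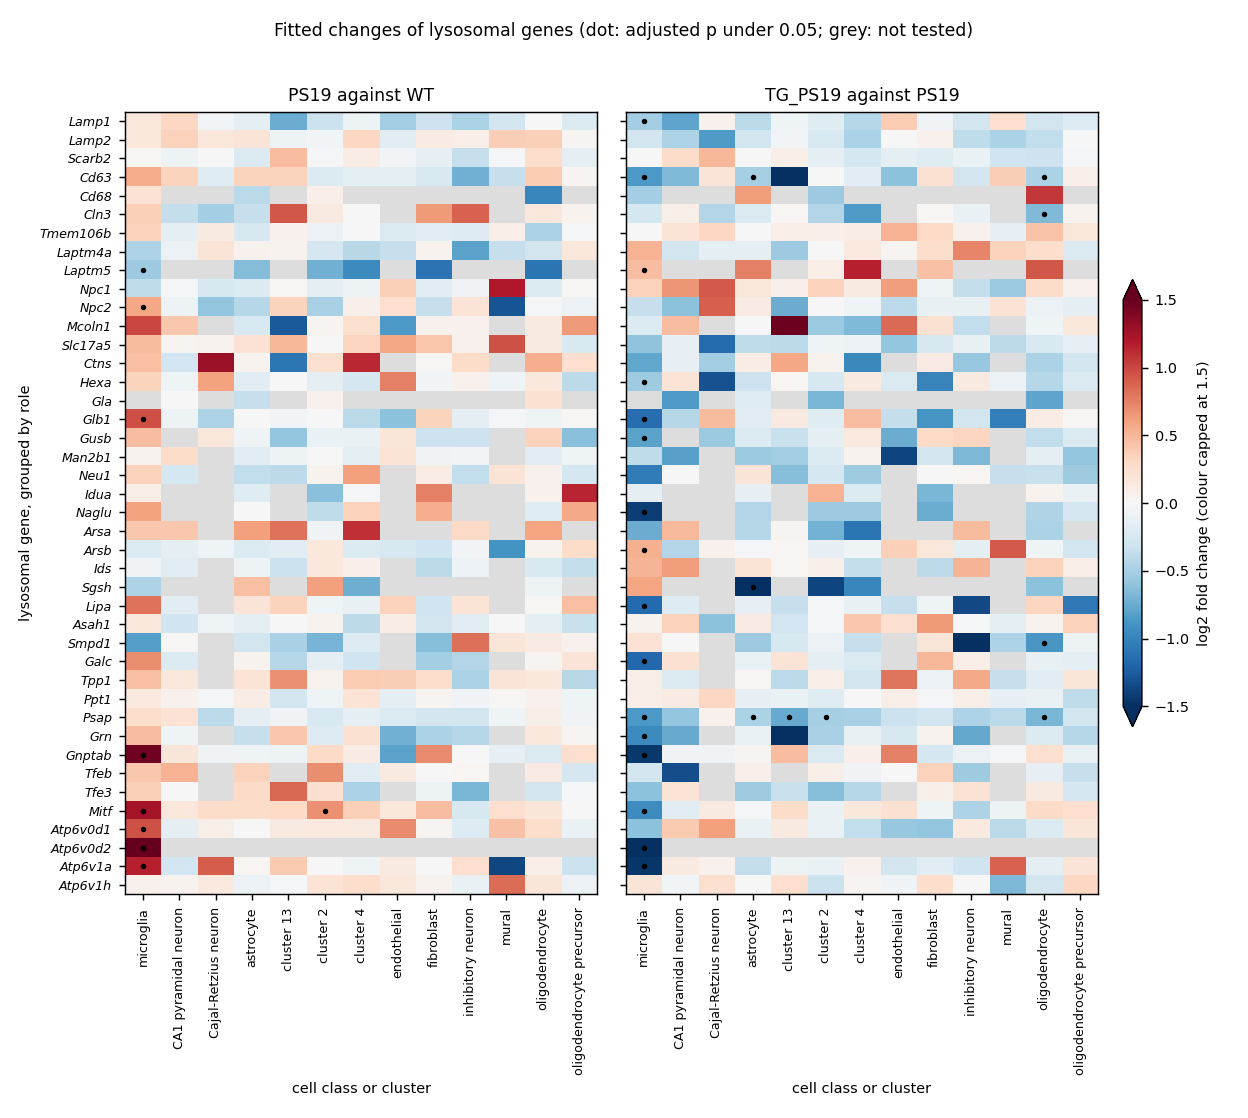
Log2 fold changes of the tested members, grouped by role, for PS19 against WT and TG_PS19 against PS19, with called members marked. In microglia, 14 members were called lower and 2 higher in TG_PS19 against PS19. In PS19 against WT, 7 were called higher and 1 lower in microglia. Both counts include Atp6v0d2, which passed the filter on low counts through the PS19 libraries alone.

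The transcription factors of lysosome formation came first, because Mitf was the member with the smallest adjusted p in PS19 against WT. Mitf (chromosome 6, 97807052 to 98021349, plus strand, GRCm38) codes for the MiT/TFE factor best known from pigment cells and osteoclasts. Its level in microglia was 390 CPM in WT, 863 and 979 in PS19 and 455 in TG_PS19. Both PS19 libraries stood far above the other libraries, which lay close together. The log2 fold change was 1.25 (standard error 0.15, adjusted p = 1.59e-13 in edgeR) in PS19 against WT and -0.94 (standard error 0.16, adjusted p = 1.35e-07 in edgeR) in TG_PS19 against PS19. Its relatives moved less: Tfeb was at 107 CPM in WT, 149 and 133 in PS19 and 111 in TG_PS19, and Tfe3 at 75.0, 91.0, 99.7 and 59.5 CPM. Both factors were highest in the PS19 libraries, and neither was called in PS19 against WT or in TG_PS19 against PS19. Mitf was also the member whose calls held most widely: DESeq2 gave adjusted p values of 0.000219 and 0.0151 for the same contrasts. It was the only member that DESeq2 called in either of them. That tool called 1.61% of the 5420 and 1.65% of the 5624 microglial genes to which it gave an adjusted p, fewer genes than edgeR tested.

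The V-ATPase was represented by 4 subunits. Atp6v1a and Atp6v0d1 were called higher in PS19 than in WT, and Atp6v1a was called lower in TG_PS19 than in PS19. Atp6v0d2 is described after them. Atp6v1a (chromosome 16, 44085402 to 44139705, minus strand), the catalytic A subunit of the cytosolic V1 part, was at 52.0 CPM in WT, 128 and 107 in PS19 and 40.1 in TG_PS19. It rose by a log2 fold change of 1.17 in PS19 (standard error 0.26, adjusted p = 0.000237 in edgeR) and stood at -1.46 in TG_PS19 against PS19 (standard error 0.30, adjusted p = 4.83e-05 in edgeR). Both PS19 values exceeded both others by a wide margin. Atp6v0d1, the broadly expressed d subunit of the membrane-bound V0 part, was at 81.0 CPM in WT, 153 and 160 in PS19 and 96.8 in TG_PS19. Its log2 fold change of 0.95 in PS19 against WT was called (standard error 0.22, adjusted p = 0.000435 in edgeR), whereas the value of -0.62 in TG_PS19 against PS19 was not (standard error 0.23, adjusted p = 0.0683 in edgeR). Atp6v1h, the regulatory H subunit, was level across the libraries at 84.0 CPM in WT, 92.6 and 84.4 in PS19 and 95.4 in TG_PS19.

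Atp6v0d2 (chromosome 4, 19876841 to 19922605, minus strand) codes for the other d subunit, the isoform of osteoclasts and some macrophages, and it was seen in PS19 microglia and not in the others. Its UMIs numbered 0 in WT, 20 and 11 in PS19 and 0 in TG_PS19, or 32.5 and 14.1 CPM in the PS19 libraries. Against a floor of 3 counts per library, the PS19 libraries were at least 10.8-fold and 4.69-fold higher than WT and at least 7.83-fold and 3.39-fold higher than TG_PS19. The gene passed the filter on low counts through the PS19 libraries alone, so its calls in both comparisons are given as a description and not as support. Without it, microglia had 6 higher and 1 lower call among 40 members in PS19 against WT, and 2 higher and 13 lower in TG_PS19 against PS19. These UMIs came from few nuclei: 6 of 255 and 4 of 282 PS19 microglia, against 0 of 589 in WT and 0 of 410 in TG_PS19. Of the 31 UMIs, 30 lay in cluster 21. Among all other nuclei, 9 of 28080 held a UMI of this gene.

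**Figure D2:**
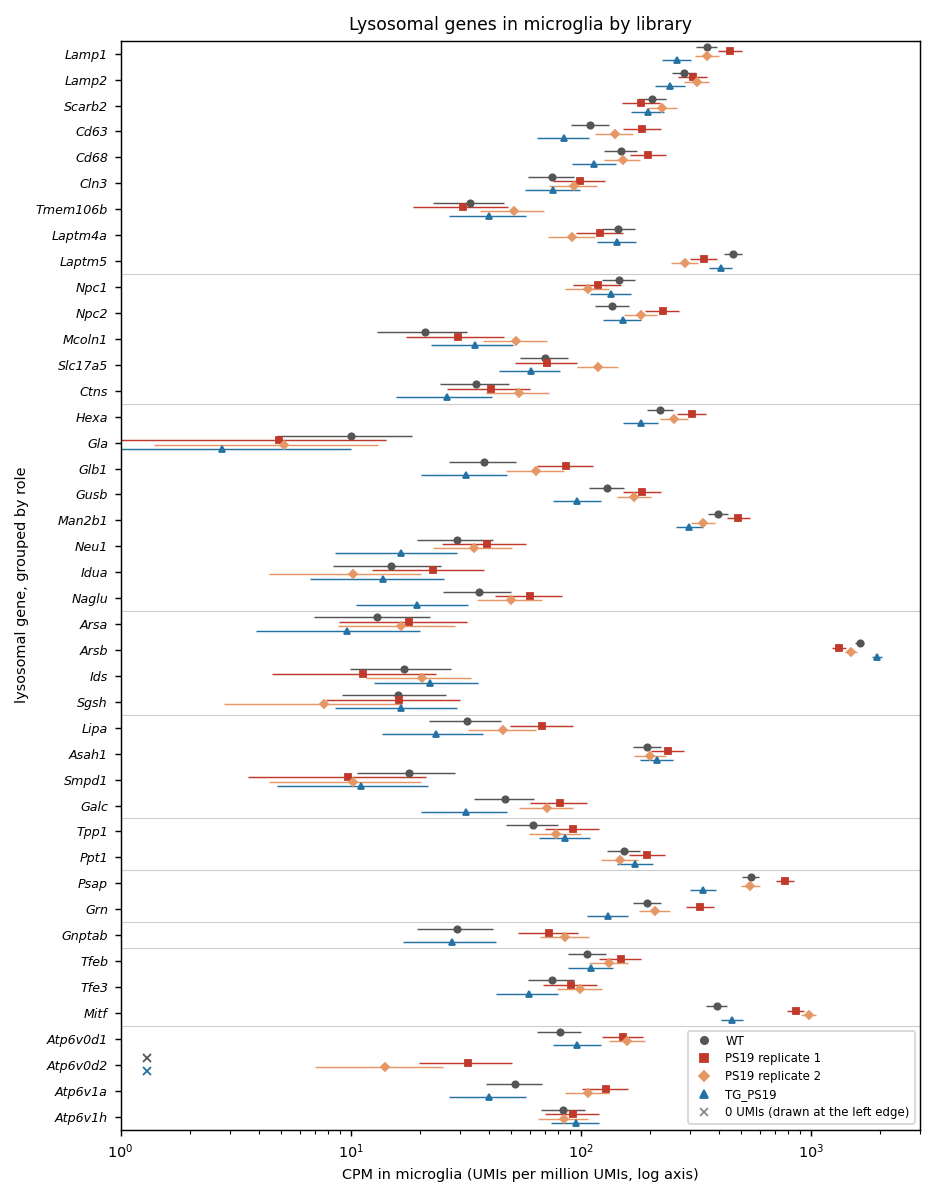
Levels of members in microglia in CPM, in each of the 4 libraries with exact Poisson intervals for counting error. For Mitf the PS19 libraries reached 863 and 979 CPM while WT and TG_PS19 were at 390 and 455 CPM; for Psap the lowest library was TG_PS19 at 342 CPM.

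Gnptab (chromosome 10, 88379132 to 88447329, plus strand) codes for the catalytic part of the enzyme that begins the mannose 6-phosphate tag on lysosomal hydrolases. It was at 29.0 CPM in WT, 73.1 and 85.6 in PS19 and 27.7 in TG_PS19. WT and TG_PS19 were nearly equal, and both PS19 libraries lay well above them. The log2 fold change was 1.46 in PS19 against WT (standard error 0.31, adjusted p = 1.07e-04 in edgeR) and -1.45 in TG_PS19 against PS19 (standard error 0.35, adjusted p = 8.00e-04 in edgeR).

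The activator precursor Psap and progranulin, Grn, showed another pattern: they were lowest in TG_PS19, and PS19 was not called against WT. Psap (chromosome 10, 60277627 to 60302597, plus strand), whose product is cut into the saposins that present lipids to hydrolases, was at 550 CPM in WT, 772 and 547 in PS19 and 342 in TG_PS19. PS19 replicate 2 was level with WT, and TG_PS19 lay below all other libraries. The log2 fold change was 0.26 in PS19 against WT (standard error 0.15, adjusted p = 0.342 in edgeR), -0.86 in TG_PS19 against PS19 (standard error 0.16, adjusted p = 7.16e-06 in edgeR) and -0.60 in TG_PS19 against WT (standard error 0.18, adjusted p = 0.0736 in edgeR). Grn, a secreted and lysosomal protein whose loss causes frontotemporal dementia and storage disease, was at 195 CPM in WT, 331 and 211 in PS19 and 131 in TG_PS19. Its fold change in TG_PS19 against PS19 was -0.95 (standard error 0.20, adjusted p = 8.30e-05 in edgeR), and in PS19 against WT it was 0.46 (standard error 0.17, adjusted p = 0.0762 in edgeR). The value rested more on PS19 replicate 1, being -0.61 without that library and -1.26 without replicate 2.

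Among the 7 tested glycosidases, which trim sugars from glycoproteins, glycolipids and glycosaminoglycans, 1 was higher in PS19 than in WT and 4 were lower in TG_PS19 than in PS19. Glb1, the beta-galactosidase also used as a senescence stain, was at 38.0 CPM in WT, 86.1 and 63.9 in PS19 and 31.8 in TG_PS19. It was called both ways, with log2 fold changes of 0.97 (standard error 0.30, adjusted p = 0.0177 in edgeR) and -1.14 (standard error 0.34, adjusted p = 0.0123 in edgeR). Naglu, which removes N-acetylglucosamine from heparan sulfate, was at 36.0 CPM in WT, 60.1 and 49.9 in PS19 and 19.4 in TG_PS19. TG_PS19 held the lowest value, and the fold change against PS19 was -1.41 (standard error 0.40, adjusted p = 0.00706 in edgeR). Gusb, the beta-glucuronidase (130, 185, 171 and 96.8 CPM in WT, PS19 replicates 1 and 2, and TG_PS19), and Hexa, the alpha subunit of beta-hexosaminidase (222, 305, 254 and 183 CPM), were also called lower in TG_PS19 than in PS19. Their log2 fold changes were -0.80 and -0.53, and TG_PS19 lay below every other library. The alpha-mannosidase Man2b1 was at 397, 484, 341 and 297 CPM and the sialidase Neu1 at 29.0, 39.0, 34.5 and 16.6 CPM in the same order. These also had their lowest level in TG_PS19, but neither passed the test. Idua, the iduronidase, lay within 7.67 to 22.7 CPM in every library, as did Smpd1, Ids, Sgsh and Arsa.

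Of the 4 lipid hydrolases, 2 were lower in TG_PS19 than in PS19 and none was called in PS19 against WT. Galc, which cleaves the myelin lipid galactosylceramide, was at 47.0 CPM in WT, 81.2 and 71.6 in PS19 and 31.8 in TG_PS19. The log2 fold change in TG_PS19 against PS19 was -1.18 (standard error 0.34, adjusted p = 0.00867 in edgeR). Lipa, the acid lipase that frees cholesterol from its esters, was at 32.0 CPM in WT, 68.2 and 46.0 in PS19 and 23.5 in TG_PS19. Its fold change was -1.17 (standard error 0.38, adjusted p = 0.0247 in edgeR). For both genes the PS19 libraries were the highest and TG_PS19 the lowest. The acid ceramidase Asah1 was flatter, at 195, 239, 201 and 214 CPM, and was not called.

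Of the 4 sulfatases, 1 was called in microglia, and it rose in TG_PS19. Arsb (chromosome 13, 93771630 to 93943016, plus strand), which removes sulfate from dermatan and chondroitin sulfate, was at 1632 CPM in WT, 1324 and 1502 in PS19 and 1943 in TG_PS19. TG_PS19 was the highest library, and Arsb rose by a log2 fold change of 0.53 against PS19 (standard error 0.13, adjusted p = 0.00143 in edgeR). In PS19 against WT its value was -0.20 (standard error 0.13, adjusted p = 0.444 in edgeR). Several annotated genes overlap Arsb, and strand-specific counting is not stated, so part of its UMIs may belong to them. The peptidase Tpp1 (62.0, 92.6, 78.0 and 85.7 CPM) and the thioesterase Ppt1 (154, 195, 148 and 173 CPM) were not called in either comparison.

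Of the 5 channels and transporters, 1 was called in PS19 against WT and none in TG_PS19 against PS19. Npc2, the soluble partner of the cholesterol exporter Npc1, was at 137 CPM in WT, 227 and 183 in PS19 and 152 in TG_PS19. It rose by a log2 fold change of 0.58 in PS19 (standard error 0.19, adjusted p = 0.0304 in edgeR), and its value in TG_PS19 against PS19 was -0.34 (standard error 0.20, adjusted p = 0.349 in edgeR). Npc1 itself was at 147 CPM in WT, 119 and 107 in PS19 and 136 in TG_PS19, and was not called. Mcoln1, the lysosomal calcium channel TRPML1, was at 21.01, 29.2, 52.4 and 34.6 CPM, with a fold change of 1.00 in PS19 against WT that missed the threshold (adjusted p = 0.0682 in edgeR). The PS19 libraries differed from each other in Mcoln1 by more than replicate 1 differed from WT. The sialic acid exporter Slc17a5 (70.0, 71.5, 119 and 60.8 CPM) and the cystine exporter Ctns (35.0, 40.6, 53.7 and 26.3 CPM) were lowest in TG_PS19 and were not called.

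The 9 membrane proteins included the only member called lower in PS19 microglia. Laptm5 (chromosome 4, 130913125 to 130936141, plus strand), a lysosomal transmembrane protein, was at 459 CPM in WT, 343 and 284 in PS19 and 407 in TG_PS19. Both PS19 libraries lay below the others. The log2 fold change was -0.55 in PS19 against WT (standard error 0.16, adjusted p = 0.00634 in edgeR) and 0.46 in TG_PS19 against PS19 (standard error 0.16, adjusted p = 0.0495 in edgeR). Beside it, 4 of the 11 microglia markers, to which Laptm5 does not belong, were also called lower in PS19 than in WT, and 6 were called higher and 1 lower in TG_PS19 than in PS19. Cd63, a tetraspanin of late endosomes (110, 185, 141 and 84.4 CPM), and Lamp1, the major lysosomal membrane glycoprotein (354, 447, 354 and 263 CPM), were called lower in TG_PS19 than in PS19. The fold changes were -0.86 and -0.52, and the lowest value was again in TG_PS19. The other 6 were not called: Lamp2 (282, 307, 321 and 245 CPM), Scarb2, the receptor that carries glucocerebrosidase (205, 184, 226 and 196 CPM), Cd68 (149, 197, 152 and 115 CPM), Cln3 (75.0, 99.1, 93.3 and 76.1 CPM), Tmem106b (33.0, 30.9, 51.1 and 40.1 CPM) and Laptm4a (146, 122, 92.0 and 144 CPM). Cd68, a common marker of phagocytic microglia, was thus close to WT in 1 PS19 library and above it in the other.

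The 2 microglia clusters, which were made without the members, differed in the same genes. In cluster 21 of the PS19 libraries, Mitf was at 1090 and 1268 CPM, whereas in cluster 7, the larger one, it was at 384 CPM in WT, 670 and 760 in PS19 and 452 in TG_PS19. Cluster 7 alone thus kept the same order of libraries, and Mitf was called there in both comparisons, at 0.90 (adjusted p = 3.24e-05 in edgeR) and -0.59 (adjusted p = 0.0307 in edgeR). Psap and Grn were also called there in TG_PS19 against PS19, at -0.71 (adjusted p = 0.00774 in edgeR) and -0.97 (adjusted p = 0.00183 in edgeR). Gnptab was at 99.1 and 145 CPM in cluster 21, and in cluster 7 at 28.4 CPM in WT, 51.0 and 40.5 in PS19 and 27.7 in TG_PS19. Its values there were 0.67 and -0.62, and neither was called (adjusted p = 0.598 and 0.649 in edgeR). Atp6v1a likewise was at 173 and 160 CPM in cluster 21 and was not called in cluster 7, at 0.64 (adjusted p = 0.445 in edgeR) and -0.87 (adjusted p = 0.235 in edgeR). Arsb and Laptm5 were low in cluster 21, at 1027 and 1087 CPM and at 251 and 207 CPM. Within cluster 7 they were not called, at 0.27 for Arsb in TG_PS19 against PS19 (adjusted p = 0.445 in edgeR) and -0.30 for Laptm5 in PS19 against WT (adjusted p = 0.579 in edgeR).

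**Figure D3:**
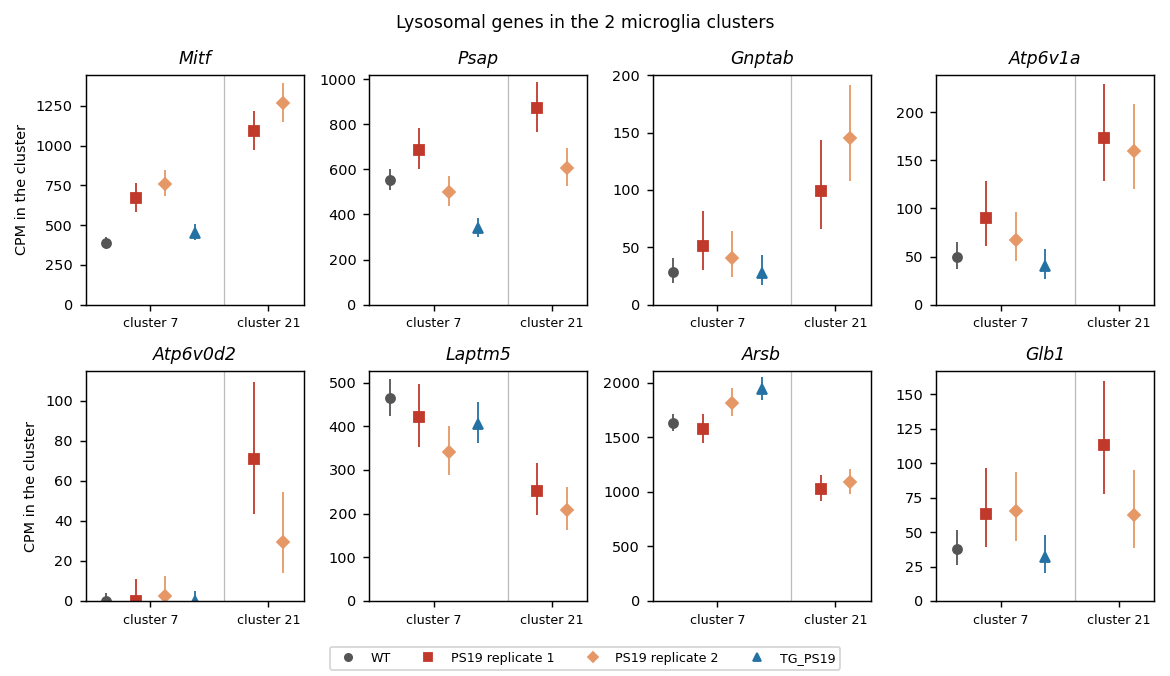
Levels of members in the 2 microglia clusters in CPM, by library, with exact Poisson intervals; cluster 21 is drawn for the PS19 libraries, since it held 5 WT nuclei and 1 TG_PS19 nucleus. Mitf and Gnptab stood higher in cluster 21 than in cluster 7 of the same PS19 library, and Arsb and Laptm5 stood lower.

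With cluster 7 alone, 1 member was called in PS19 against WT and 3 in TG_PS19 against PS19, beside 3.19% and 3.02% of all genes in that cluster. This setting was chosen after the clusters had been seen. Fewer PS19 nuclei, 150 and 176, entered it. In bulk sums of a class, a change in the mixture of nuclei and a change of RNA per nucleus cannot be told apart. Every nucleus was also thinned to 1000 UMIs, which removes the difference in depth per nucleus and leaves out shallower nuclei. Then 3 members were called in microglia in PS19 against WT and 5 in TG_PS19 against PS19, beside 6.49% and 6.29% of all genes. How many members were tested in cluster 7 alone and after thinning is not given here. Whether these counts of members exceed the shares of all genes therefore cannot be told from them.

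Outside microglia, PS19 against WT called 1 member in 1 cluster. In cluster 2, Mitf was at 49.0 CPM in WT, 72.0 and 83.3 in PS19 and 68.1 in TG_PS19. WT was the lowest library, and TG_PS19 lay close to the PS19 pair. Mitf rose in PS19 by 0.69 (standard error 0.12, adjusted p = 4.55e-06 in edgeR), where 1.41% of the genes of this cluster were called higher. TG_PS19 against WT gave 0.59 (standard error 0.14, adjusted p = 0.000795 in edgeR), where 5.88% were called in either direction. That value depended on which nuclei of the mixed TG_PS19 pool were counted: it was 0.77 in nuclei with Xist UMIs and -0.06 (adjusted p = 0.94 in edgeR) in nuclei with Y-linked UMIs. In the other 11 classes and clusters, edgeR and DESeq2 called 0 members in PS19 against WT; of the 371 tests there, 22 had an unadjusted p below 0.05 in edgeR, and 2.21% of all genes were called.

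TG_PS19 against PS19 called members in 4 classes or clusters besides microglia, every one of them lower. Psap was called in all 4. In astrocytes it was at 325 CPM in WT, 368 and 240 in PS19 and 193 in TG_PS19, in oligodendrocytes at 239, 294, 202 and 149 CPM, in cluster 2 at 156, 161, 107 and 87.2 CPM, and in cluster 13 at 184, 233, 135 and 100 CPM. In each of these TG_PS19 was the lowest library, and PS19 replicate 2 lay below WT while replicate 1 lay above it. The log2 fold changes were -0.47 in astrocytes (adjusted p = 0.0165 in edgeR), -0.68 in oligodendrocytes (adjusted p = 9.54e-05 in edgeR), -0.50 in cluster 2 (adjusted p = 0.000349 in edgeR) and -0.76 in cluster 13 (adjusted p = 0.0374 in edgeR). The share of all genes called lower was 3.7%, 2.82%, 3.05% and 0.479% in the same order. Without PS19 replicate 1 the values shrank to -0.15, -0.40, -0.20 and -0.37, and without replicate 2 they grew to -0.74, -0.92, -0.77 and -1.10. The size of the Psap difference therefore depended on which PS19 library TG_PS19 was compared with, while its sign did not. Of all member calls outside microglia in this comparison, 4 remained with only the TG_PS19 nuclei holding Y-linked UMIs, which are fewer. The other 5 kept only their direction, and the counts were the same with only the nuclei holding Xist UMIs. With DESeq2, 6 of these calls could be compared, and all 6 kept direction and lost their call.

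Psap was the member with the widest pattern, and it was singled out after its values were seen. Its fitted value in TG_PS19 against PS19 was below 0 in 12 of 13 classes and clusters, and TG_PS19 was the lowest of the 4 libraries in 11 of 13. PS19 replicate 1 was above replicate 2 in 13 of 13, and replicate 2 was below WT in 12. Against WT, Psap was called lower in TG_PS19 in astrocytes at -0.60 (standard error 0.16, adjusted p = 0.0125 in edgeR), where 0.576% of all genes were called lower. It was also called in oligodendrocytes at -0.59 (standard error 0.16, adjusted p = 0.0135 in edgeR; 0.87% of genes lower) and in cluster 2 at -0.73 (standard error 0.12, adjusted p = 5.66e-07 in edgeR). The summed level of the 42 members showed the same gap between the PS19 libraries, with replicate 1 above replicate 2 in 13 of 13 and TG_PS19 lowest in 10 of 13. The mitochondrial share of UMIs moved with that gap: it was higher in replicate 1 than in replicate 2 in 13 of 13, for example 0.116% and 0.0736% in astrocytes, and TG_PS19 had the lowest share in 0 of 13. Its part in the Psap values was not tested.

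**Figure D4:**
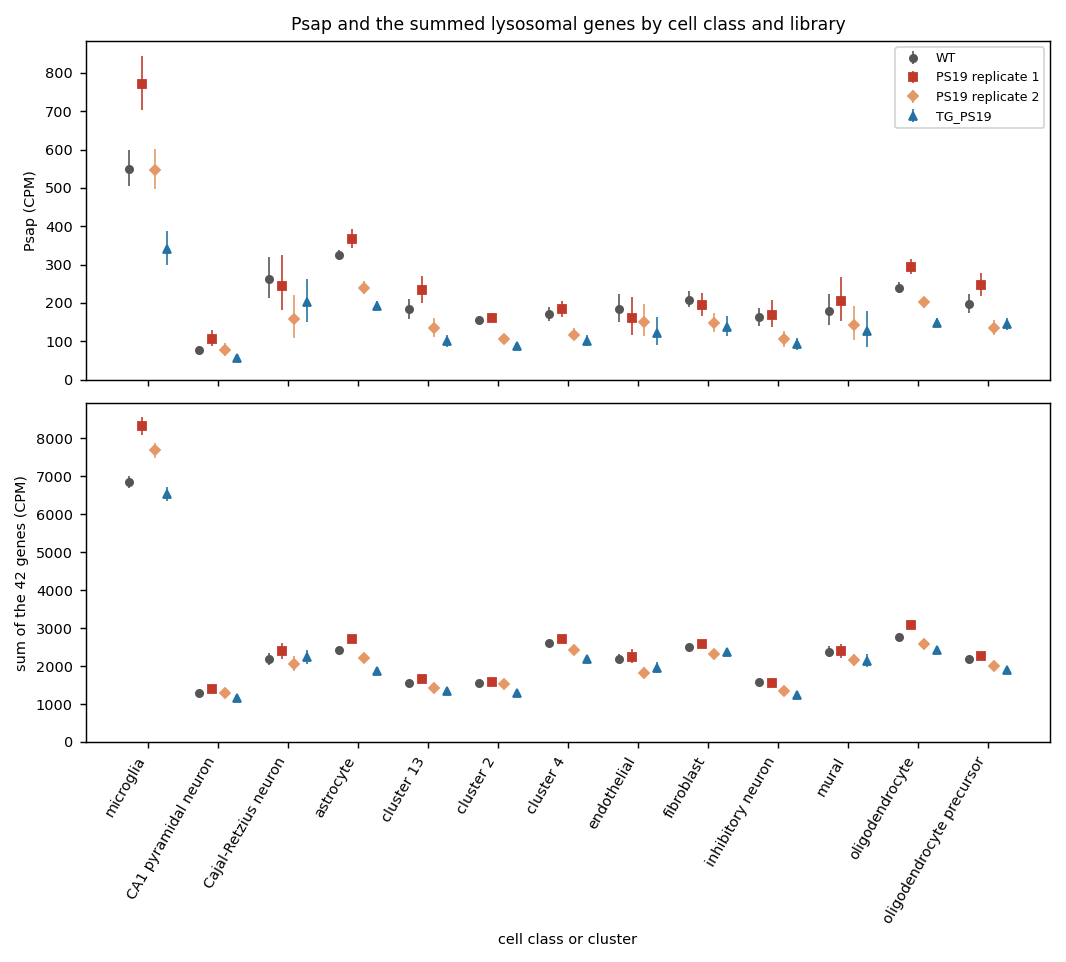
Psap level in CPM, in each of the 13 classes and clusters for the 4 libraries. TG_PS19 was the lowest library in 11 of 13, and PS19 replicate 1 lay above replicate 2 in 13 of 13.

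The remaining calls outside microglia were in astrocytes, oligodendrocytes and cluster 2. Astrocytes had lower Cd63 in TG_PS19 than in PS19, with levels of 185 CPM in WT, 275 and 201 in PS19 and 148 in TG_PS19. The fold change was -0.50 (adjusted p = 0.00866 in edgeR) and shrank to -0.28 without PS19 replicate 1. Sgsh, the sulfamidase of heparan sulfate breakdown, had 33 UMIs in WT, 16 and 17 in PS19 and 7 in TG_PS19 astrocytes, or 4.34, 6.83, 5.38 and 1.38 CPM. Its value of -1.93 (standard error 0.64, adjusted p = 0.0311 in edgeR) thus rested on few molecules, and the exact Poisson interval of the TG_PS19 level at 95% ran from 0.554 to 2.84 CPM. Oligodendrocytes had lower Smpd1, the acid sphingomyelinase, at 18.2 CPM in WT, 26.5 and 12.98 in PS19 and 10.1 in TG_PS19. The value of -0.87 (standard error 0.27, adjusted p = 0.0235 in edgeR) was -0.32 without replicate 1 and -1.33 without replicate 2. Cd63 and Cln3 were also called lower in TG_PS19 oligodendrocytes, at -0.48 and -0.66, and the Cd63 value was -0.24 without replicate 1. Against WT, TG_PS19 astrocytes had lower Smpd1 (-0.83, adjusted p = 0.0239 in edgeR) and lower Lamp1 (-0.54, adjusted p = 0.0347 in edgeR). Cluster 2 had lower Lamp1 (-0.50, adjusted p = 0.00837 in edgeR). Of all member calls in TG_PS19 against WT, 2 remained with only the nuclei holding Y-linked UMIs, 4 kept only their direction and 1 reversed. With only the nuclei holding Xist UMIs, 5 remained. With DESeq2, 6 could be compared, and all 6 kept direction and lost their call.

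In the other 8 classes and clusters, edgeR and DESeq2 called 0 members in TG_PS19 against PS19; of 255 tests there, 23 had an unadjusted p below 0.05 in edgeR, and 1.9% of all genes were called. The member with the largest fitted change in this comparison was Tfeb in CA1 neurons (-1.33), Smpd1 in inhibitory neurons (-1.94), Hexa in Cajal-Retzius neurons (-1.31) and in fibroblasts, Man2b1 in endothelial cells (-1.38), Glb1 in mural cells (-1.02), Lipa in oligodendrocyte precursors (-1.07) and Laptm5 in cluster 4 (1.17). Beside the calls, the largest change was Sgsh (-1.38) in cluster 2, Grn (-1.78) in cluster 13 and Cd68 (1.06) in oligodendrocytes. In PS19 against WT it was Laptm5 in astrocytes (-0.65), oligodendrocytes (-1.10), fibroblasts (-1.11) and cluster 2 (-0.72), Mcoln1 in cluster 13 (-1.26) and endothelial cells (-0.86), Ctns in cluster 4 (1.13) and Cajal-Retzius neurons, Tfeb in CA1 neurons (0.52), Cln3 in inhibitory neurons (0.88), Atp6v1a in mural cells (-1.37) and Idua in oligodendrocyte precursors (1.14). None of these passed the test. Laptm5 in oligodendrocytes had 43 UMIs in WT, 11 and 18 in PS19 and 32 in TG_PS19, where the 11 microglia markers summed to 311 CPM in WT, 208 and 159 in PS19 and 225 in TG_PS19. Both were highest in WT, and the part of microglial RNA in the Laptm5 values was not tested.

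The other genes of the pathway were read from 4 lists, beside the 9.85% and 9.92% of all microglial genes called in the main comparisons (4.96% higher and 4.89% lower, and 5.09% higher and 4.83% lower). With 14 to 19 genes tested per list, 1 call is more than 5% of a list. In microglia, 16 further V-ATPase genes gave 3 higher and 1 lower call in PS19 against WT and 2 lower calls in TG_PS19 against PS19. Atp6v1b2, the B subunit of the V1 part, was at 99.0 CPM in WT, 188 and 152 in PS19 and 70.5 in TG_PS19, with log2 fold changes of 0.77 (standard error 0.21, adjusted p = 0.0043 in edgeR) and -1.18 (standard error 0.24, adjusted p = 5.08e-05 in edgeR). Tcirg1, the V0 a subunit of osteoclasts, was at 130, 223, 176 and 104 CPM and was called in both comparisons as well. Atp6v0a2, another a subunit, went the other way at 182, 140, 99.7 and 115 CPM and was called lower in PS19 than in WT. The 19 further hydrolases and cofactors gave 3 higher calls in PS19 against WT (Dnase2a and Manba among them) and 2 lower calls in TG_PS19 against PS19 (Dnase2a and Plbd2). Dnase2a, the lysosomal DNase, was at 57.0 CPM in WT, 107 and 119 in PS19 and 62.2 in TG_PS19. In microglia, every call of these main comparisons in these 2 lists except that of Atp6v0a2 had the PS19 side higher. Over the 13 classes and clusters the further hydrolases had 5 higher and 5 lower calls among 205 tests in PS19 against WT. Of all genes tested in these classes, 2.83% were called in that comparison. In TG_PS19 against PS19 the same list had 0 higher and 6 lower calls among 205 tests, where 1.64% of all genes were called lower.

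The 16 further membrane and sorting genes gave 1 higher and 1 lower call in each main comparison. Slc11a1, a metal transporter of phagocyte lysosomes, was at 114 CPM in WT, 180 and 192 in PS19 and 96.8 in TG_PS19. Cd164, a sialomucin of endosomes, had the reverse order, at 79.0 CPM in WT, 16.2 and 30.7 in PS19 and 119 in TG_PS19. Its log2 fold changes were -1.69 (standard error 0.31, adjusted p = 3.32e-06 in edgeR) and 2.37 (standard error 0.31, adjusted p = 2.54e-12 in edgeR). The 14 genes that dock mTORC1 on lysosomes gave 2 higher calls in PS19 against WT and 1 lower call in TG_PS19 against PS19. Fnip2, a partner of folliculin, which acts on the Rag GTPases that hold MiT/TFE factors at the lysosome, was at 154 CPM in WT, 497 and 444 in PS19 and 158 in TG_PS19. Its log2 fold changes were 1.61 (standard error 0.18, adjusted p = 2.18e-17 in edgeR) and -1.49 (standard error 0.19, adjusted p = 1.83e-13 in edgeR), both larger in size than those of Mitf. Fnip1 was also called higher in PS19, at 247, 414, 495 and 321 CPM.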

How the data were processed

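Counts were raw UMI counts per gene and nucleus that the authors produced using Cell Ranger 7.1.0 on mouse build GRCm38, per the submitters' processing notes, and deposited as 1 matrix per library. Nuclei came from frozen pooled hippocampus and a 10x 3′ kit, per the labels' protocols. Intron counting, strand setting and annotation release are not given in the sources used here; genes that overlap others (among the called members Lamp1, Cln3, Hexa, Glb1, Arsb, Sgsh, Galc, Grn, Gnptab and Mitf) are therefore uncertain. The members and lists were chosen with earlier results of these data known.

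Nuclei with at least 500 UMIs, 300 genes and at most 5% mitochondrial UMIs were kept, and the highest doublet scores were left out at 0.8% per 1000 nuclei (1303 WT, 172 and 194 PS19 and 756 TG_PS19). Clusters came from 2000 variable genes without members, 30 principal components, 15 neighbours and Leiden at resolution 1.0 (leidenalg 0.10.2, Python 3.11.15), giving 31 clusters. Classes were named from 18 marker lists, by a rule made stricter after the clusters were seen; 29.5%, 28.3%, 29.0% and 33.6% of nuclei stayed unnamed, and clusters are rebuilt, not the authors'. Libraries shared 5 to 26 barcodes pairwise. Classes with at least 50 nuclei in every library were summed and tested with edgeR 4.0.16 (R 4.3.3; TMM, low-count filter, quasi-likelihood F-test, Benjamini-Hochberg adjustment within each class). Only the PS19 pair gave residual freedom (1 degree). The fitted prior degrees of freedom were infinite in every class and cluster except inhibitory neurons (126). The spread of a gene was thus taken from the trend over all genes of its class. How far its own PS19 replicates differed had no weight in its p-value, and little weight in inhibitory neurons. SE was the log2 fold change over the root of F. The procedure was also run on simulated counts. These gave every library the same spread and no shift of its own, so they could not test the assumption made for the lone libraries. Exact Poisson intervals and the floor of 3 counts cover counting error only.

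Values in full are given for called pairs of member and class (the 12 largest fold changes where over 12 were called), the largest fold change per class, and up to 5 genes per pathway list with the smallest adjusted p; some results of the pathway lists are not reported here. Alternatives were DESeq2 1.42.0, other scalings, no filter, thinning, kept doublets, resolution 2.0, sex-split TG_PS19 nuclei and left-out libraries.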

Additional observations from a re-analysis of the deposited data

How the results depend on the processing

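Over the 13 classes and clusters, PS19 against WT called 9 members. The count was 1 with DESeq2, 3 after thinning, 15 with doublets kept and 2 with the largest microglia cluster alone, the last chosen after seeing the data; in microglia, where 8 were called, it was 1, 3 and 1 with DESeq2, thinning and that cluster. TG_PS19 against PS19 called 25. The count was 15 without the low-count filter, 1 with DESeq2, 8 after thinning, 13 with TG_PS19 nuclei holding Y-linked UMIs and 12 with the largest microglia cluster alone; in microglia, where 16 were called, it was 1 with DESeq2, 5 after thinning, 5 with Y-linked nuclei and 3 with that cluster. TG_PS19 against WT called 7, with 12 by library totals, 4 without the filter, 0 with DESeq2, 1 after thinning and 3 with Y-linked nuclei; in microglia the 0 became 1 by library totals. The thinned, sex-split and single-cluster settings used fewer UMIs or nuclei, and the cause was not tested. The share of all genes called over the 13 classes and clusters is not given for these alternatives. Whether the member counts changed along with those of all genes therefore cannot be told from them. Of 41 named pairs of member and class, 1 reversed: Mitf in cluster 2, TG_PS19 against WT, at -0.06 with Y-linked nuclei. With DESeq2, 33 of 35 pairs kept direction and lost their call, and 2 kept both. The summed microglial level was 1.17 times WT in PS19 and 0.815 times PS19 in TG_PS19; without Psap and Mitf these were 1.09 and 0.892, and without 1 PS19 library they ranged from 1.12 to 1.22 and from 0.784 to 0.850. Without either PS19 library no residual degree of freedom remained, so calls could not be counted, and all 41 pairs kept direction. Library totals moved the median of all genes by -0.18 at most, in astrocytes for TG_PS19 against PS19. No paired analysis was possible because the groups share fewer than 2 replicate numbers. Depth limited Gla and the members at 7.67 to 22.7 CPM in microglia.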

Other observations

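Over all 13 classes and clusters, the other V-ATPase genes were tested 185 times in each comparison and gave 3 higher and 5 lower calls in PS19 against WT, 9 lower calls in TG_PS19 against PS19 and 5 lower calls in TG_PS19 against WT. Of all genes tested in these classes, 2.83% were called in PS19 against WT, 1.64% were called lower in TG_PS19 against PS19 and 1.83% were called in TG_PS19 against WT. Outside microglia, Atp6v0c, the proton-carrying c subunit, was called lower in PS19 than in WT in cluster 2, cluster 4, mural cells and oligodendrocytes. In cluster 2, Galns, a sulfatase of keratan sulfate breakdown, was at 31.5 CPM in WT, 50.4 and 47.4 in PS19 and 25.1 in TG_PS19. It was called at 0.64 in PS19 against WT (adjusted p = 0.000714 in edgeR) and at -0.86 in TG_PS19 against PS19 (adjusted p = 1.77e-06 in edgeR).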
